A study of Mus musculus with 6 samples.

Results

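Autophagy is the route by which a cell wraps cytoplasm, organelles or protein aggregates in a double membrane, the autophagosome, and delivers them to the lysosome. The genes described here are 38 genes of that route in mouse, taken as a fixed list: 29 of the core machinery that builds the autophagosome, 7 cargo receptors that tether a cargo to its membrane, and 2 transcription factors of autophagy and lysosomal genes. Its rule uses gene function, but the members were chosen with earlier results of these data known. Transcripts of 37 of the 38 genes were matched in the deposited tables and all 37 were tested, out of 15619 tested genes of 23394 matched genes. Atg2a, which encodes a lipid transfer protein, was not analysed here.

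RNA was measured in F4/80-positive liver cells of KO and WT mice, with 3 libraries of each genotype. All mice were C57BL/6 males, 3 months old and on normal chow, and all had received intraperitoneal carbon tetrachloride (CCl4), a hepatotoxin that causes fibrosis when given repeatedly. The labels name neither the deleted gene nor the cells that lack it, and no animals without CCl4 were analysed here, so genotype is the only contrast. Whether the libraries are separate animals is not in the labels, so the p-values speak only of how these libraries vary. F4/80 is a surface antigen of mouse macrophages, and magnetic sorting after digestion of the liver was used to collect the cells.

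The core machinery acts in a known order. A kinase complex around ULK1 starts the process and a phosphatidylinositol 3-kinase complex around Beclin 1 marks the membrane. Lipid transfer and conjugation enzymes then extend it and attach the ubiquitin-like ATG8 proteins, LC3 and GABARAP, to its lipids. Cargo receptors such as p62 bind both a cargo and ATG8. In macrophages autophagy is known to limit inflammasome activity and to clear damaged mitochondria and lipid droplets.

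The libraries differed in their RNA of marker genes of other liver cells. The files give values proportional to read counts, called normalised counts here, and the libraries held 10790842 to 19163317 reads in KO and 15027644 to 22157238 in WT with 1 transcript kept per gene. Mitochondrially encoded transcripts took 16.2% to 20% of the reads in KO and 6.19% to 27.5% in WT. The 12 macrophage markers were read in every library, with summed normalised counts of 65691 to 71663 in KO and 78113 to 129646 in WT, and none passed the test. The genes did not all follow the sum, since 4 of the 12 had a log2 change above 0. Csf1r, Marco and Ptprc lay lower in KO without overlap. Clec4f lay higher in KO without overlap (log2 change 1.12, limma adjusted p = 0.0537), and the other markers overlapped. The summed hepatocyte markers stood at 101603 to 191629 in KO and 26173 to 92933 in WT, and 6 of 11 tested genes rose (Tat, Cyp2e1, Cps1, Ass1, Serpina1a and Mup3), with a median log2 change of 2.23. The summed endothelial markers stood at 55374 to 108546 in KO and 26381 to 49378 in WT, and 5 of 10 rose (Tie1, Emcn, Clec4g, Dnase1l3 and Bmp2), with a median of 1.37. The summed stellate cell and fibroblast markers stood at 28727 to 51861 in KO and 18223 to 24193 in WT, and 1 of 10, Col1a1, rose. The summed erythroid markers overlapped, at 30738 to 268726 in KO and 2221 to 33346 in WT, but all 7 tested genes had a change above 0 (median 3.20 on the log2 scale), and 6 of the 7 reached an unadjusted p under 0.05. None passed the adjusted test. The summed neutrophil and lymphocyte markers also overlapped. Of their genes only Retnlg, a neutrophil marker, separated the groups, lower in KO (log2 change -1.17, limma adjusted p = 0.0653). In these bulk samples, fewer cells of a type and less RNA per cell cannot be told apart.

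**Figure D1:**
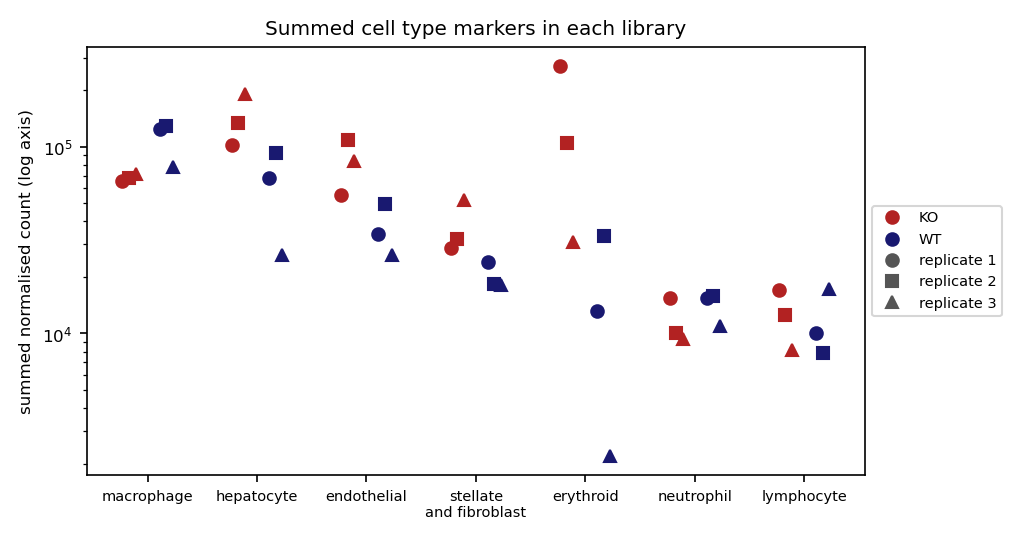
Summed normalised counts of 7 lists of cell type markers on a log axis, with 1 symbol per library and KO left of WT in each list. The hepatocyte, endothelial and stellate sums of the KO libraries lie above those of the WT libraries, the macrophage sums lie below, and the erythroid, neutrophil and lymphocyte sums overlap.

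limma called 0 of the 37 tested autophagy genes (adjusted p under 0.05), where it called 2.44% of all tested genes, 2.09% higher in KO and 0.352% lower. Most of the machinery had close to the same level in KO and WT. The log2 change, on the scale of log2(normalised count + 1), lay between -0.25 and 0.25 for 29 of the 37 genes, where 6468 of all 15619 tested genes had such a change. Its median was -0.01, against 0.05 over all tested genes. In these comparisons the 37 genes were not matched in level to all tested genes. The 95% intervals, which are not adjusted for the number of genes, lay between -1 and 1 for 32 of the 37 (86.5%), where 48.1% of all tested genes had such an interval. The KO and WT values did not overlap for 6 of the 37 genes, or 16.2%, where 22.9% of all tested genes did not overlap. Of the 6, 5 lay higher in KO, where 13.7% of all tested genes did, and 1 lay lower, where 9.25% did. An unadjusted p under 0.05 was reached by 4 genes, or 10.8%, and by 18% of all tested genes. These 4 were Bnip3, Gabarapl1, Optn and Map1lc3a, all higher in KO. edgeR's quasi-likelihood test on the recovered reads called 0 of the 37, where it called 1.81% of all tested genes. DESeq2 called Bnip3, Gabarapl1 and Optn, all higher in KO, where it called 9.02% of all tested genes and 6.14% as higher in KO.

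**Figure D2:**
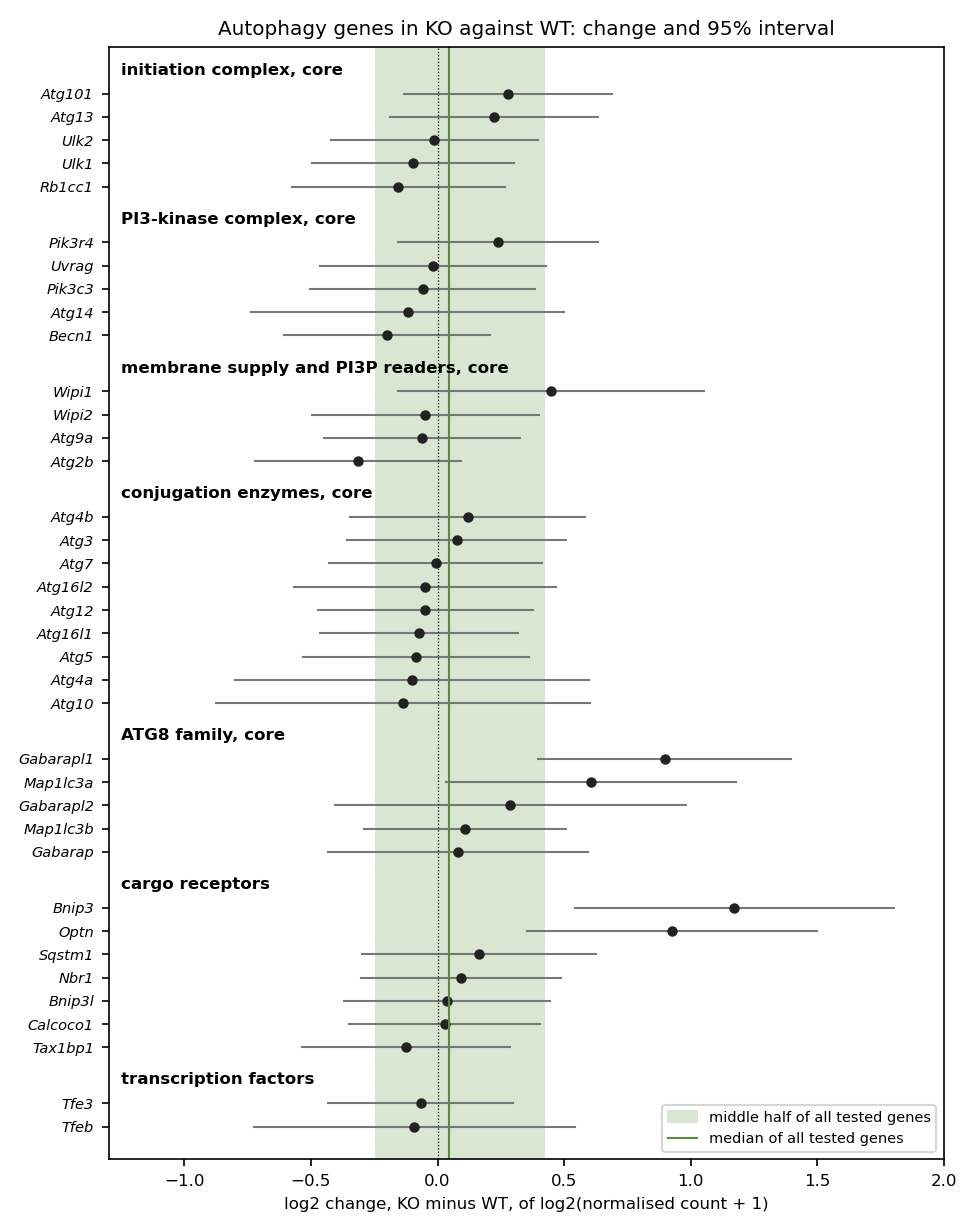
Log2 change between KO and WT (x axis, points) with its 95% interval (lines) for the 37 tested autophagy genes, grouped by role. The shaded band spans the quartiles of all tested genes, from -0.24 to 0.42, and holds 31 of the 37 points, with Bnip3, Optn, Gabarapl1, Map1lc3a and Wipi1 above it and Atg2b below it.

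The promoters of Bnip3, Gabarapl1 and Optn, the 3 genes with the largest changes, are shown beside that of Atg3, which held the longest of the motifs searched. Sequences were taken from RefSeq for GRCm38.p6 and run from 250 bases before to 50 bases after the gene's start, 5′ to 3′ on the gene's strand. The start used differs from that of the kept transcript for Gabarapl1, Optn and Atg3. The Optn window lies wholly before its kept transcript. Promoters were matched for 31 of the 38 genes. Capitals mark CACGTG, the E-box bound by TFEB and TFE3.
Bnip3, chr7:138909457-138909756, minus strand: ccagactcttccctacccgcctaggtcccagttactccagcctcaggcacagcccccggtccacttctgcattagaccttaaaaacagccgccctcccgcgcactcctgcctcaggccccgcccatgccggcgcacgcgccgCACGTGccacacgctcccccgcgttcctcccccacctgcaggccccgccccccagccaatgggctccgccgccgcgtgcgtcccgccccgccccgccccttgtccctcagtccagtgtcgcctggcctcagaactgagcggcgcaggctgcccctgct
Gabarapl1, chr6:129532942-129533241, plus strand: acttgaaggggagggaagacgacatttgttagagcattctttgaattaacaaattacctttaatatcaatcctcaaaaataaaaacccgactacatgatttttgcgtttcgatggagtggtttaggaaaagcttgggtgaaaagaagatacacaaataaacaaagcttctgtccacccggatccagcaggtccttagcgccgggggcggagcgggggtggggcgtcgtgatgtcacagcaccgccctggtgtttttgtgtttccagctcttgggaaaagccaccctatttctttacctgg
Optn, chr2:5064068-5064367, minus strand: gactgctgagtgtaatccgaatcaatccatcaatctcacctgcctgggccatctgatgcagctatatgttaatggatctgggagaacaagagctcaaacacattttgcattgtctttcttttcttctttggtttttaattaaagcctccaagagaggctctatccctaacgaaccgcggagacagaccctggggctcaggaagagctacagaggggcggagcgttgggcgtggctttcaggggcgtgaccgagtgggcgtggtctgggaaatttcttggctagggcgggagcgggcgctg
Atg3, chr16:45158579-45158878, plus strand: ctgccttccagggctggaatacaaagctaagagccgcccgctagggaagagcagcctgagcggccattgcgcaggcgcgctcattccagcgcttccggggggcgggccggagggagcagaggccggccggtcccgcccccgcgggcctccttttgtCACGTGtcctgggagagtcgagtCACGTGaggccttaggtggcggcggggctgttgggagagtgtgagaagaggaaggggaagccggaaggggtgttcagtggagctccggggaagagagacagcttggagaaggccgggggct
The E-box of Bnip3 begins 108 bases before the start used for its window, and those of Atg3 begin 94 and 71 bases before the start used for that gene. The second E-box of Atg3 lies in TCACGTGA, which adds flanking bases of the CLEAR element of lysosomal genes, and Atg3 was the only matched gene of the list with that motif, which 0.974% of all promoters held. CACGTG stood in 5 of the 37 promoters of these 31 genes, or 13.5%, those of Atg3, Atg5, Atg7, Atg14 and Bnip3, against 7.15% of all 32851 promoters. ACGTG, a core bound by hypoxia-inducible factors that overlaps CACGTG, stood in 15 of the 37, or 40.5%, against 19.6% of all promoters. GTAAACA, a forkhead site bound by FOXO factors, stood in 0 of the 37, against 3.65% of all. Both strands were searched. The median GC content was 60.0% in the 37 promoters and 52.7% in all. A match is a description of these windows and not evidence of binding.

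The initiation complex gave no call among its 5 genes. Ulk1 and Ulk2 encode its kinases and had log2 changes of -0.10 and -0.01, with 95% intervals of -0.50 to 0.30 and -0.42 to 0.40. Atg101 encodes a small subunit that stabilises ATG13. It stood at 635, 579 and 502 normalised counts in KO replicates 1, 2 and 3, against 430, 494 and 486 in WT. The groups did not overlap, but the nearest values were 502 in KO and 494 in WT (log2 change 0.28, SE 0.18, limma adjusted p = 0.48). Atg13 encodes the regulatory subunit of the complex, and stood at 931, 704 and 767 in KO and 643, 649 and 757 in WT, with overlap. Rb1cc1 encodes FIP200, the scaffold of the complex. It stood at 648, 723 and 638 in KO and 873, 620 and 764 in WT, with overlap (log2 change -0.16).

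The PI3-kinase complex likewise gave no call. Becn1 encodes Beclin 1, the subunit that joins the kinase to its regulators. It stood at 2007, 1879 and 1538 normalised counts in KO and 2356, 1845 and 2024 in WT, with overlap (log2 change -0.20, SE 0.18, limma adjusted p = 0.627). Pik3r4 encodes the pseudokinase VPS15. It stood at 772, 810 and 666 in KO and 590, 607 and 705 in WT, with overlap (log2 change 0.24). Pik3c3, the catalytic subunit, Atg14, which targets the complex to autophagosomes, and Uvrag, which takes it to endosomes, had log2 changes of -0.06, -0.12 and -0.02. The kept Becn1 transcript retains an intron and shares 43.0% of its length with Cntd1 on the opposite strand. Cntd1 stood at no more than 23.8 normalised counts in any library.

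The genes of membrane supply had the lowest change of the list and a change above the upper quartile of all genes, and neither passed. Atg2b encodes a lipid transfer protein that feeds the growing membrane. It stood at 514, 643 and 528 normalised counts in KO and 668, 653 and 772 in WT. Every KO value lay below every WT value, with KO replicate 2 close to WT replicate 2 (log2 change -0.32, SE 0.18, 95% interval -0.72 to 0.09, limma adjusted p = 0.412). Wipi1 encodes a reader of the lipid made by the PI3-kinase complex. It stood at 203, 329 and 312 in KO and 244, 196 and 170 in WT, so KO replicate 1 lay among the WT values (log2 change 0.45, SE 0.27, limma adjusted p = 0.435). Its paralog Wipi2, which recruits the conjugation machinery, and Atg9a, which encodes a lipid scramblase, had log2 changes of -0.05 and -0.06. Atg9a shares 45.2% of its kept transcript with the model Gm29253 on the same strand, and reads of the shared exons cannot be told apart.

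The 9 conjugation genes had a narrow range of changes. All had 95% intervals between -1 and 1, and their log2 changes ran from -0.14 for Atg10 to 0.12 for Atg4b, with a median of -0.05. Atg7 encodes the E1-like enzyme that activates both ubiquitin-like proteins of the route. It had a log2 change of -0.01 (SE 0.19, 95% interval -0.43 to 0.42). Atg3 and Atg10 encode the E2-like enzymes, and Atg5, Atg12 and Atg16l1 the complex that acts as E3. Atg5 and Atg16l1 had log2 changes of -0.08 and -0.07. Atg16l1 averaged 635 ± 18.3 normalised counts in KO and 672 ± 82.0 in WT (SD, n = 3 each). Atg4a and Atg4b encode proteases that trim ATG8 proteins. The near-identical gene Atg4a-ps matches 96.0% of the kept Atg4a transcript at 99.3% identity, so the count of Atg4a, 97.2 ± 7.43 in KO and 107 ± 29.8 in WT, is uncertain between them.

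All 5 genes of the ATG8 family had log2 changes above 0, with a median of 0.29, and none passed limma's test. Over all tested genes, 54.2% had a change above 0. The count was 5 of 5 under every scaling, 3 of 5 without KO replicate 1, where Gabarap and Map1lc3b were below 0, and 4 of 5 without WT replicate 3, where Gabarap did. Gabarapl1 encodes a GABARAP-type protein of the autophagosome membrane and had the largest change of the core machinery. It lies at chr6:129533160-129542346 on the plus strand (GRCm38). It stood at 1949, 1628 and 2295 normalised counts in KO replicates 1, 2 and 3, against 1340, 1024 and 819 in WT. The groups did not overlap, and the difference was 0.90 on the log2 scale, a 1.86-fold level with a 95% interval of 1.32 to 2.63 (SE 0.22, limma adjusted p = 0.0686). DESeq2 gave an adjusted p of 0.0132 and edgeR 0.0867. The 6 fits without 1 library gave log2 changes of 0.73 to 1.08 and limma adjusted p of 0.0721 to 0.248. On the opposite strand 1700101I11Rik overlaps 20.7% of the Gabarapl1 transcript, and it stood at 18.9 or fewer normalised counts in every library.

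Map1lc3a encodes LC3A and lies at chr2:155276297-155278073 on the plus strand (GRCm38). It stood at 392, 378 and 271 normalised counts in KO and 251, 173 and 260 in WT. KO replicate 3 lay just above the highest WT library (log2 change 0.61, SE 0.25, limma adjusted p = 0.25). Map1lc3b encodes LC3B, the usual marker protein of autophagosomes, and stood at 2916, 2143 and 2320 in KO and 2364, 2119 and 2305 in WT, with overlap. Its log2 change was 0.11, with a 95% interval of -0.29 to 0.51. Gabarap stood at 5179, 3671 and 4574 in KO and 5249, 4280 and 3272 in WT, also with overlap. Gabarapl2 encodes GATE-16, and stood at 314, 238 and 152 in KO and 197, 213 and 149 in WT, with overlap. The processed pseudogene Gm3724 nearly copies 20.8% of the Gabarapl2 transcript at 99.4% identity, and stood at 72.9% of its level over the 6 libraries.

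Per kilobase of kept transcript, Gabarap had the highest level of the family, at 3312 ± 562 normalised counts per kb in KO and 3158 ± 732 in WT (SD, n = 3 each). Gabarapl1 followed at 1075 ± 183 in KO and 583 ± 144 in WT, then Map1lc3b at 594 ± 97.8 in KO and 547 ± 30.9 in WT. Map1lc3a stood at 312 ± 59.2 per kb in KO and 205 ± 43.0 in WT, and Gabarapl2 lowest at 140 ± 48.4 in KO and 111 ± 19.8 in WT. The kept Map1lc3b transcript retains an intron. On its highest coding transcript Map1lc3b stood at 821 ± 139 per kb in KO and 702 ± 56.6 in WT, so the order of the WT means of Map1lc3b and Gabarapl1 depends on the transcript, and their WT ranges overlapped on the kept one. Over the whole list Gabarap and Sqstm1 were the highest, with means over the 6 libraries of 3235 and 3052 per kb and overlapping ranges, and Atg4a was the lowest at 46.3.

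Among the 7 cargo receptors, Bnip3 and Optn stood apart from the other 5, and neither passed limma's test. Bnip3 encodes a mitophagy receptor of the outer mitochondrial membrane, known as a target of hypoxia signalling. It lies at chr7:138890836-138909506 on the minus strand (GRCm38). It stood at 361, 199 and 324 normalised counts in KO replicates 1, 2 and 3, against 121, 137 and 122 in WT. The WT values lay close together and all KO values lay above them, with KO replicate 2 nearest. The log2 change was 1.17, a 2.25-fold level with a 95% interval of 1.46 to 3.49 (SE 0.28, limma adjusted p = 0.0627). DESeq2 gave an adjusted p of 0.00305 and edgeR 0.0645. These values rest on 167 to 383 reads in KO and 117 to 217 in WT. The count of Bnip3 may be shared with other genes. The opposite-strand gene Gm45507, not analysed here, overlaps 28.7% of the kept transcript. The processed pseudogene Gm16439 matches 32.1% of it at 98.9% identity, and the copies AC160336.1 and Gm6532 were not analysed here. Gm16439 itself stood at 79.0, 20.3 and 38.1 normalised counts in KO and 21.6, 22.1 and 18.5 in WT.

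Optn encodes optineurin, a receptor for ubiquitin-tagged bacteria and mitochondria, at chr2:5020642-5064045 on the minus strand (GRCm38). It stood at 337, 486 and 436 normalised counts in KO and 239, 264 and 163 in WT. The groups did not overlap, with KO replicate 1 and WT replicate 2 nearest to each other. The log2 change was 0.93, a 1.90-fold level with a 95% interval of 1.28 to 2.83 (SE 0.26, limma adjusted p = 0.0922). DESeq2 gave an adjusted p of 0.0319 and edgeR 0.115. Both of its coding transcripts gave nearly the same values.

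The other receptors overlapped between the groups. Sqstm1 encodes p62, the best known receptor of ubiquitin-tagged aggregates, and stood at 7854, 6137 and 5754 normalised counts in KO and 6645, 5612 and 5300 in WT. Its log2 change was 0.16, with a 95% interval of -0.30 to 0.63 (limma adjusted p = 0.744). Nbr1, a receptor related to p62, stood at 1894, 1655 and 2288 in KO and 1786, 1883 and 1759 in WT. Tax1bp1 and Calcoco1 encode related receptors. Tax1bp1 stood at 2704, 2550 and 2648 in KO and 3412, 2382 and 2915 in WT, with a log2 change of -0.13. Calcoco1 stood at 810.5, 915 and 827 in KO and 789, 785 and 933 in WT. Bnip3l encodes NIX, the paralog of BNIP3 that removes mitochondria from maturing red cells. It stood at 1743, 1523 and 1424 in KO and 1772, 1303 and 1514 in WT (log2 change 0.04, 95% interval -0.37 to 0.44). Bnip3l-ps nearly copies 20.3% of its transcript and stood at 12.6% of its level. The summed erythroid markers had their highest value in KO replicate 1 and their lowest in WT replicate 3, and Bnip3l was highest in WT replicate 1 and lowest in WT replicate 2. The part of red cell RNA in the values of Bnip3l was not tested.

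**Figure D3:**
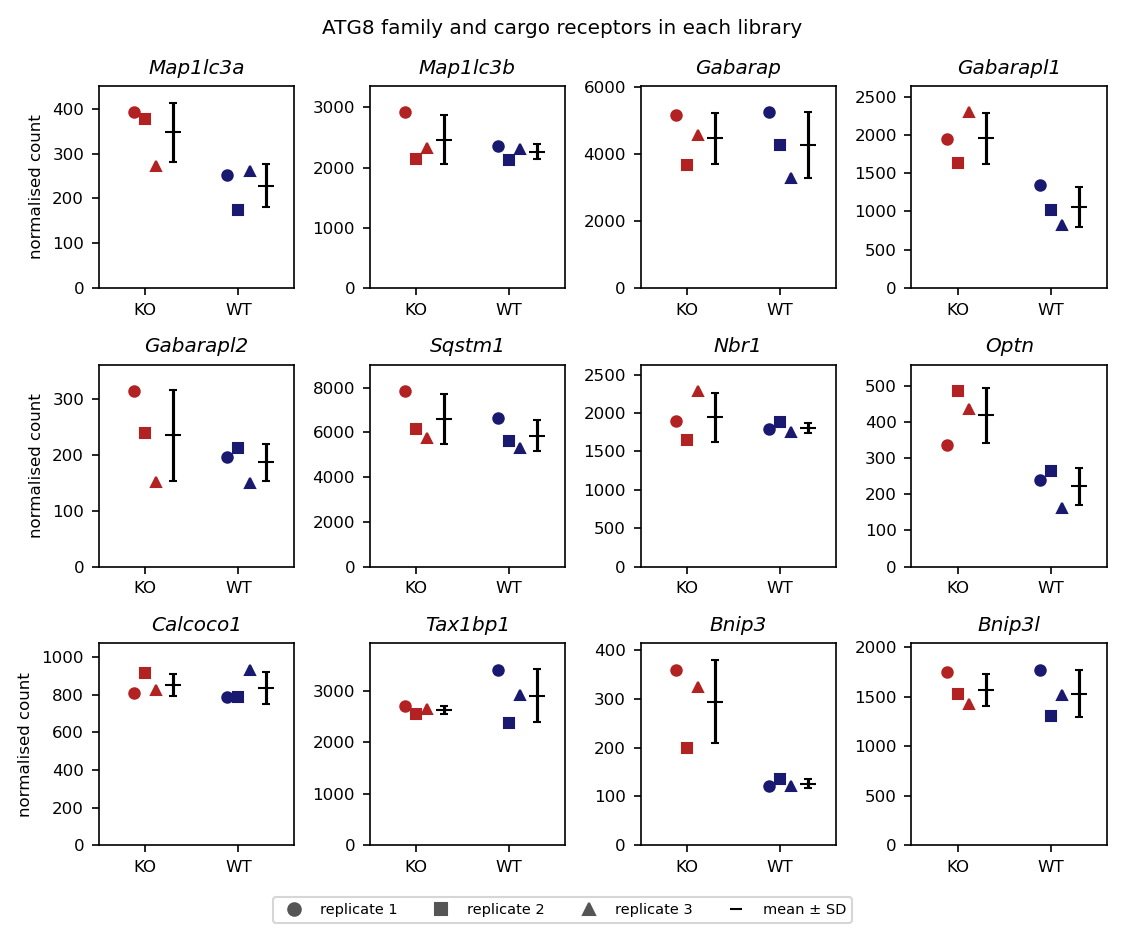
Normalised counts of the 5 ATG8 family genes and 7 cargo receptors, with 1 symbol per library, KO left of WT, and the mean ± SD of each group (n = 3) as a black bar. The groups do not overlap for Gabarapl1, Map1lc3a, Optn and Bnip3, and overlap for the other 8 genes.

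Core machinery and cargo receptors were then set side by side. The median log2 change was -0.03 over the 28 tested core genes and 0.09 over the 7 receptors, against 0.05 over all tested genes. The receptors were above 0 in 6 of 7 genes, but in 4 of 7 with TMM or DESeq2 scaling, where Bnip3l and Calcoco1 were below 0, and the core machinery in 11 of 28, against 54.2% of all tested genes. Without 1 library the core count ran from 12 to 19, the highest without WT replicate 1. As the mean of log2 levels relative to the WT mean, the receptors stood at 0.39, 0.25 and 0.35 in KO replicates 1, 2 and 3, against 0.09, -0.03 and -0.07 in WT. The mean over all 15619 tested genes also separated the groups, at 0.14, 0.10 and 0.15 in KO and 0.02, -0.02 and 0.00 in WT. The core machinery stood at 0.14, 0.06 and -0.01 in KO and 0.11, -0.08 and -0.03 in WT, with overlap. Without Bnip3 and Optn, left out after their values were seen, the 5 other receptors stood at 0.11, -0.02 and 0.02 in KO and 0.11, -0.11 and 0.00 in WT, with overlap. The median receptor level, in place of the mean, also overlapped, at 0.20, 0.08 and -0.01 in KO and 0.14, -0.05 and -0.04 in WT. With Bnip3 and Optn included, the mean of the 7 receptors minus that of the core machinery stood at 0.25, 0.18 and 0.36 in KO. In WT it stood at -0.01, 0.05 and -0.04. No test is given for these scores, since the genes were chosen with results of these data known.

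**Figure D4:**
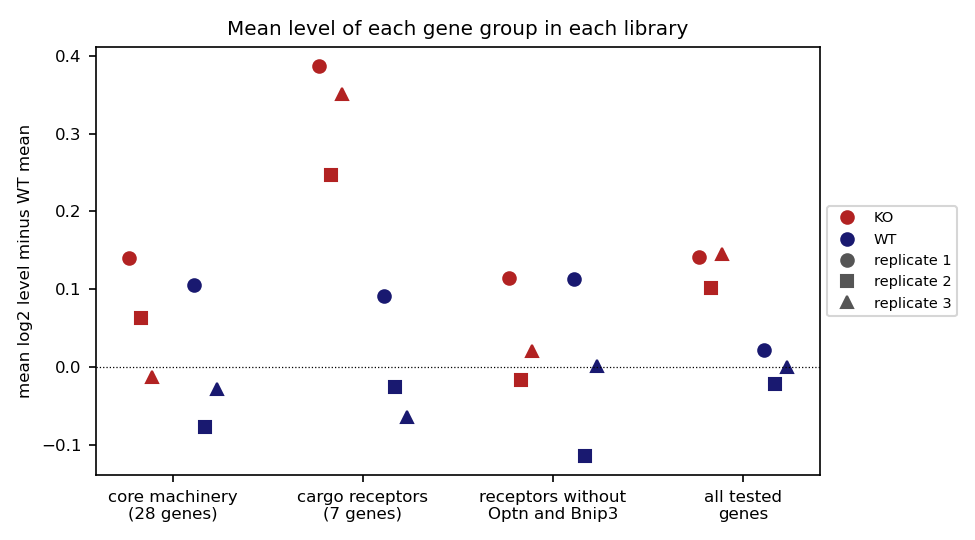
Mean log2 level of each gene group in each library minus its WT mean, with KO left of WT. The 3 KO values of the 7 receptors (0.25 to 0.39) lie above the WT values (-0.07 to 0.09), and overlap with them once Optn and Bnip3 are left out. The mean over all tested genes also lies higher in KO (0.10 to 0.15) than in WT (-0.02 to 0.02).

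Beside Bnip3, Gabarapl1, Optn and Map1lc3a, the only other genes of the list without overlap were Atg101 and Atg2b, the second lower in KO. The summed markers of hepatocytes, endothelium and stellate cells also separated the groups without overlap, and lay higher in KO. The part of these other cells in the values of Bnip3, Gabarapl1, Optn and Map1lc3a was not tested.

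Tfeb and Tfe3 encode the transcription factors that switch on lysosomal and autophagy genes when they enter the nucleus. Tfeb stood at 970, 942 and 720 normalised counts in KO and 585, 1107 and 1227 in WT, where replicate 1 was the lowest of all libraries (log2 change -0.09, 95% interval -0.72 to 0.54). Tfe3 stood at 1323, 1328 and 1469 in KO and 1553, 1482 and 1289 in WT, with overlap (log2 change -0.07). RNA levels carry no information on where these proteins are in the cell, nor on the flux through autophagy.

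Most of these genes have several annotated transcripts that share exons and hence reads. The 37 genes had 249 transcripts in the files, and for 17 of the 29 genes with more than 1 the next transcript was within 5% of the kept one. The kept transcript was annotated as protein coding for 32 of the 37 genes. That of Becn1, Atg16l1, Map1lc3b and Tfe3 retains an intron, and that of Atg16l2 is annotated as subject to nonsense-mediated decay. Of 151 other transcripts with a mean of at least 100 normalised counts, 4 differed from the kept transcript by more than 0.5 in log2 change. The largest was in Map1lc3b. Its transcript ENSMUST00000181826 is a single exon at chr8:121590477-121593109 on the plus strand, and runs from exon 1 into the first intron of the spliced transcripts. It stood at 124, 112 and 140 normalised counts in KO and 186, 196 and 301 in WT. All KO values lay below the WT values (log2 change -0.83), while ENSMUST00000034270, the highest spliced coding transcript, had a log2 change of 0.21. The single-exon transcript is also annotated as protein coding. The transcript was singled out after its values were seen and has no test.

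**Figure D5:**
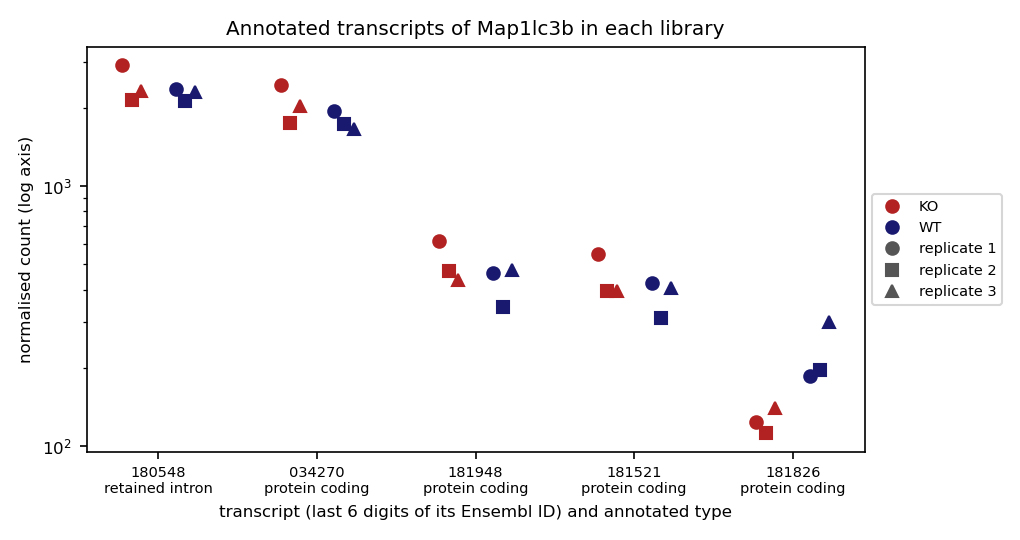
Normalised counts of the 5 annotated Map1lc3b transcripts on a log axis, ordered by mean level, with KO left of WT and 1 symbol per library. The single-exon transcript lies lower in KO (112 to 140) than in WT (186 to 301), and the other 4 overlap between the groups.

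Other genes of the pathway, from 4 lists of 66 genes, gave no call among 62 tested by limma. An unadjusted p under 0.05 was reached by 7, or 11.3%, against 18% of all tested genes. DESeq2 called 2 of the 62, Prkaa2 and Tex264, against 9.02% of all tested genes, and edgeR called 0. Both genes lay higher in KO. Prkaa2 encodes the AMPK subunit alpha 2, an energy sensor that activates ULK1. It stood at 161, 82.2 and 141 normalised counts in KO and 49.5, 14.7 and 35.9 in WT (log2 change 2.01, SE 0.51, limma adjusted p = 0.072). Tex264 encodes a receptor for endoplasmic reticulum. It stood at 761, 1099 and 956 in KO and 483, 599 and 521 in WT (log2 change 0.80, SE 0.20, limma adjusted p = 0.0662). Neither gene overlapped between the groups, as for 12.9% of the 62 genes and 22.9% of all tested genes.

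By list, none of the following changes passed limma's test. Of 13 tested selective receptors 8 had a change above 0, and the median was 0.16. Pink1, the kinase that marks damaged mitochondria, and Fkbp8, a mitochondrial receptor, had log2 changes of 0.52 and 0.60 (limma adjusted p = 0.197 and 0.224). Of 16 other machinery genes 4 were above 0, with a median of -0.14. Rubcnl, which encodes Pacer, stood at -0.79, the protease gene Atg4c at -0.74 and Irgm1, an interferon-inducible GTPase, at 0.53, with limma adjusted p of 0.239, 0.394 and 0.274. In the MTORC1 and AMPK list 10 of 19 were above 0, with a median of 0.09, and Akt1s1 and Tsc2, 2 of its 3 genes of smallest p, stood at 0.94 and 0.19 (limma adjusted p = 0.234 and 0.587). Both encode inhibitors of MTORC1 signalling, and Tsc1, the partner of Tsc2, stood at -0.19. Of 14 genes of autophagosome fusion 4 were above 0, with a median of -0.06. Plekhm1, an adaptor between autophagosome and lysosome, Tecpr1, a tethering factor, and Lamp2, a lysosomal membrane protein, stood at -0.35, 0.44 and 0.39.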

How the data were processed

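RNA of F4/80-selected liver cells was sequenced in 3 KO and 3 WT libraries, grouped by the labels' titles. Per the submitters' processing notes, the tools were STAR 2.4.0k, HTSeq 0.5.3, DESeq 1.8.3, bcl2fastq 2.17 and SAMtools, and GRCm38.p4 was the build. Neither their order nor the annotation release, strand setting and handling of multiply matching reads was given. The deposited signal per Ensembl transcript is named normalised counts per the file headers. Dividing by the smallest step of each library gave whole numbers for 100% of values (tolerance 0.001), so whole reads were recovered.

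Transcripts were matched to the GENCODE annotation of GRCm38 (78332 of 79382), and the transcript with the highest mean was kept per gene. Genes passing filterByExpr on the recovered reads were tested by limma 3.58.1 (trend option, genotype as the only term) on log2(value + 1), with Benjamini-Hochberg adjustment over 15619 genes and calls under 0.05. edgeR 4.0.16 with TMM factors on the recovered reads called 282 genes, against 381 by limma. DESeq2 1.42.0, other pseudocounts, filters, scaling and transcript choices, a block for replicate number, and fits without 1 library were the alternatives. Overlaps with other genes came from the annotation, and near-identical copies from blastn 2.17.0 at 97% identity over at least 100 bases. The members and lists were chosen with earlier results of these data known. Library values are given for the 12 genes of smallest p, the ATG8 family, the receptors and the transcription factors, and up to 3 genes are named per other list. On simulated data for KO against WT with 15619 genes, limma called 26% of 100 genes changed by 1 and 89% of 100 changed by 2 on the log2 scale, and 10 of 15419 unchanged genes. Calcoco2, Vamp7, Vamp8 and the hepatocyte gene Tf were listed and not analysed here.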

Additional observations from a re-analysis of the deposited data

How the results depend on the processing

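No autophagy gene was called in the main test or in 15 of the 16 other settings, among them edgeR, pseudocounts of 0.5 and 5, TMM factors, other filters and other transcript choices. DESeq2 on the recovered reads called 3, and 1409 genes in all, including all 381 of the main test. Over all genes the sum of transcripts gave 233 calls, and leaving out 1 library gave 8 (without KO replicate 3) to 809 (without KO replicate 1). The median log2 change without 1 library was 0.0622 to 0.20 for the receptors, highest without KO replicate 2, and -0.04 to 0.06 for the core machinery. Of the 37 genes, 22 changed sign in some setting, all with a log2 change within 0.14 of 0. The cause of these shifts was not tested. The choice of the highest protein-coding transcript was added after seeing the data. With the replicate number as a block, limma called 539 genes and 0 autophagy genes. The deviations of same-numbered libraries correlated at -0.01, 0.09 and -0.14, and those of differently numbered libraries at -0.13 to 0.14. No pairing by number was seen, but so few libraries cannot exclude it. With 3 libraries a group, a change of 1 on the log2 scale was mostly missed.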

Other observations

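Besides Map1lc3b, 3 genes held a transcript whose log2 change lay more than 0.5 from that of the kept transcript. The short Nbr1 transcript ENSMUST00000144517 stood at 110, 114 and 177 normalised counts in KO and 98.9, 67.2 and 88.2 in WT, without overlap. The retained-intron transcripts ENSMUST00000199717 of Ulk1 and ENSMUST00000188430 of Atg9a had log2 changes of -0.64 and -0.65, with overlap of the groups. These transcripts share reads with others of their gene and were singled out after their values were seen.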
